A study of Mus musculus with 11 samples.

Results

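The genes described here are 6 growth factor receptors (Met, Egfr, Erbb2, Erbb3, Fgfr2 and Fgfr3) and the ligands of the EGF family Ereg, Hbegf and Tgfa, measured in sorted mouse liver cells. They were chosen by gene symbol: of the 10 symbols listed, 9 had a row with that name among the 23185 named genes of the array. The remaining one, Areg, had no named row and is not reported here. Values were log2 expression values from Affymetrix MoGene 2.0 ST arrays, which read each gene with several probes along its transcript.

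The labelled cells carried YFP, a yellow fluorescent reporter that in this study marks descendants of the bile duct epithelium. There were 3 arrays of YFP+ cells from mice treated with DDC (a diet with 3,5-diethoxycarbonyl-1,4-dihydrocollidine that injures bile ducts, 5 weeks in the labels) and 3 of YFP+ cells from mice treated with CDE (in liver work the choline-deficient, ethionine-supplemented diet, which injures hepatocytes). Another 2 arrays held YFP+ cells of untreated mice (UTR) and 3 held YFP- cells of untreated mice. The labels name no strain, genotype, sex, age or promoter driving the label, no duration for CDE, and do not say whether an array is 1 animal or a pool, although they give 4 mice for DDC. All groups passed through the same perfusion with enzymes, slow centrifugation and sort for living cells of the non-parenchymal pellet, with the YFP gate set on wild type mice.

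Met is the receptor of hepatocyte growth factor (HGF), which stromal and endothelial cells of the liver make as an inactive precursor and which proteases cut into its active form. Egfr, Erbb2 and Erbb3 belong to the ERBB receptor family: Egfr binds ligands such as TGF-alpha (Tgfa), heparin-binding EGF (Hbegf) and epiregulin (Ereg), Erbb2 binds none known and acts as the partner of the others, and Erbb3 binds neuregulins and has little kinase activity of its own. The ligands are made as membrane proteins and released by metalloproteinases. Fgfr2 and Fgfr3 bind fibroblast growth factors. All these receptors feed the RAS-ERK cascade, and in liver they are known for their part in the growth of hepatocytes and bile ducts after injury.

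Because the receptors moved together between the sorted fractions, the promoters of the members were searched for 5 short motifs. The RefSeq table (GRCm38.p6) held 7 promoter windows, from 250 bases before to 50 bases after an annotated start, for Met, Egfr, Erbb2, Fgfr2, Fgfr3 (2 starts) and Tgfa. The motifs, read on both strands, were TGANTCA (AP-1), GGAATG (TEAD), GGGCGG (GC box), GTTAAT (HNF1 core) and AACAAAG (SOX). The GC box stood in 5 of the 7 windows, in Met, Egfr, Fgfr3 (both starts) and the ligand gene Tgfa, against 35.7% of all 32851 windows in the table. It was not found in the windows of Erbb2 and Fgfr2. Each of 3 other motifs stood in 1 window: AP-1 in Met (7.81% of all windows), TEAD in Erbb2 (14.7%) and the HNF1 core in Egfr (7.10%). The SOX letters were in 0 of the 7 (5.85% of all windows). None of these 5 motifs thus stood in all 7 windows, which did not cover Erbb3 or Ereg. The 4 stretches below show the GC box nearest the start of Met and the motifs found in 1 window each, with the motif in capitals. They lie on the plus strand at chr6:17463925-17463954, chr6:17463892-17463921, chr11:98412384-98412413 and chr11:16751977-16752006, and the motifs begin at -20, -54, -88 and -214 from the annotated starts.
Met GC box: gcgtgtgggaagGGGCGGagcagtccgagg
Met AP-1: tgttgcccggcTGAGTCAcgggccgggcag
Erbb2 TEAD: cccagtcttgctGGAATGcagttggagggg
Egfr HNF1 core, reverse strand: gtcccctcagaaATTAACtccaaaggccac

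The arrays had medians from 5.63 to 5.77 and lower quartiles from 4.27 to 4.38 over the named genes. The bile duct label fitted its markers: the mean of 8 biliary markers was 10.38 to 10.57 on DDC arrays, 10.04 to 10.15 on CDE arrays and 10.11 to 10.37 on UTR arrays, against 4.98 to 8.01 on YFP- arrays. In YFP- the highest lists were sinusoidal endothelium (8 genes, 9.84 to 11.52, against 5.07 to 5.76 on YFP+ arrays) and macrophage and Kupffer cell (7 genes, 8.94 to 11.61, against 5.76 to 6.99). The other marker lists ran from 4.68 to 5.73 on YFP+ and 6.76 to 8.87 on YFP- arrays for neutrophils, 4.69 to 4.90 and 4.82 to 9.89 for lymphocytes, 5.08 to 5.77 and 5.61 to 7.46 for stellate cells and fibroblasts, 5.84 to 6.34 and 5.08 to 5.60 for mesothelium, and 7.54 to 8.82 and 7.37 to 9.04 for hepatocytes. The 3 YFP- arrays differed in kind. Replicate 1 carried biliary markers at a mean of 8.01, against 5.20 and 4.98 on replicates 2 and 3, replicate 2 carried lymphocyte markers at 9.89, against 4.82 on replicate 1 and 5.00 on replicate 3, and replicate 3 had the highest macrophage mean (11.61). The YFP- arrays varied more, with a median SD per gene of 0.26, against 0.15 in DDC, 0.12 in CDE and 0.11 in UTR.

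Which receptors and ligands the labelled fraction carries was read from untreated mice, as YFP+ minus YFP-. All 6 receptors were higher in YFP+ cells, by 2.11 to 4.30 log2 units (adjusted p = 0.0104 at most, limma), and 0 of the 3 ligands passed the threshold of 0.05. Over all genes 18.9% were called in this comparison, 10.4% higher and 8.46% lower, with a median difference of -0.01, against a median of 2.42 over the 9 members. The 6 receptors were also the members whose arrays did not overlap between the groups, which was so in the higher direction for 22.5% of all genes. In sorted bulk cells, more cells with a transcript and more transcript per cell cannot be told apart.

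Met read 9.78 and 9.57 in untreated YFP+ cells, against 7.29, 5.55 and 4.61 in YFP- cells. Every YFP+ array lay above every YFP- array. The difference was 3.86 ± 0.59 (SE, adjusted p = 0.00210, limma), a fold of 14.5. Met stood at 9.49 to 9.76 on DDC arrays and 9.58 to 9.79 on CDE arrays, so the order of the means was CDE (9.71), UTR (9.67), DDC (9.62) and YFP- (5.81), with the 3 YFP+ groups overlapping.

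Among the ERBB receptors, Erbb3 had the lowest p. It read 7.93 and 8.18 in untreated YFP+ cells, against 5.22, 5.51 and 6.18 in YFP- cells. Replicate 3 was the highest YFP- array for Erbb3, unlike the other receptors, and the groups did not overlap. The difference was 2.42 ± 0.24 (adjusted p = 0.000231, limma). Egfr, the receptor of the ligands described here, read 8.96 and 8.74 in untreated YFP+ cells, against 7.68, 5.88 and 6.66 in YFP- cells. It was higher by 2.11 ± 0.40 (adjusted p = 0.00588), the smallest difference of the 6. Erbb2 read 8.57 and 8.93 in untreated YFP+ cells, against 7.63, 5.60 and 5.46 in YFP- cells. It was higher by 2.52 ± 0.54 (adjusted p = 0.0104, limma), with replicate 1 again the highest YFP- array.

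Both FGF receptors showed the largest differences. Fgfr2, in its epithelial form the receptor of FGF7 and FGF10, read 9.87 and 10.09 in untreated YFP+ cells, against 7.43, 4.81 and 4.80 in YFP- cells. It was higher by 4.30 ± 0.67 (adjusted p = 0.00229, limma), a fold of 19.7. Fgfr3 read 9.43 and 9.72 in untreated YFP+ cells, against 7.64, 4.44 and 4.55 in YFP- cells. It was higher by 4.03 ± 0.79 (adjusted p = 0.00692, limma), a fold of 16.4. For both genes replicates 2 and 3 of YFP- lay close together and replicate 1 lay between them and the YFP+ arrays.

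**Figure D1:**
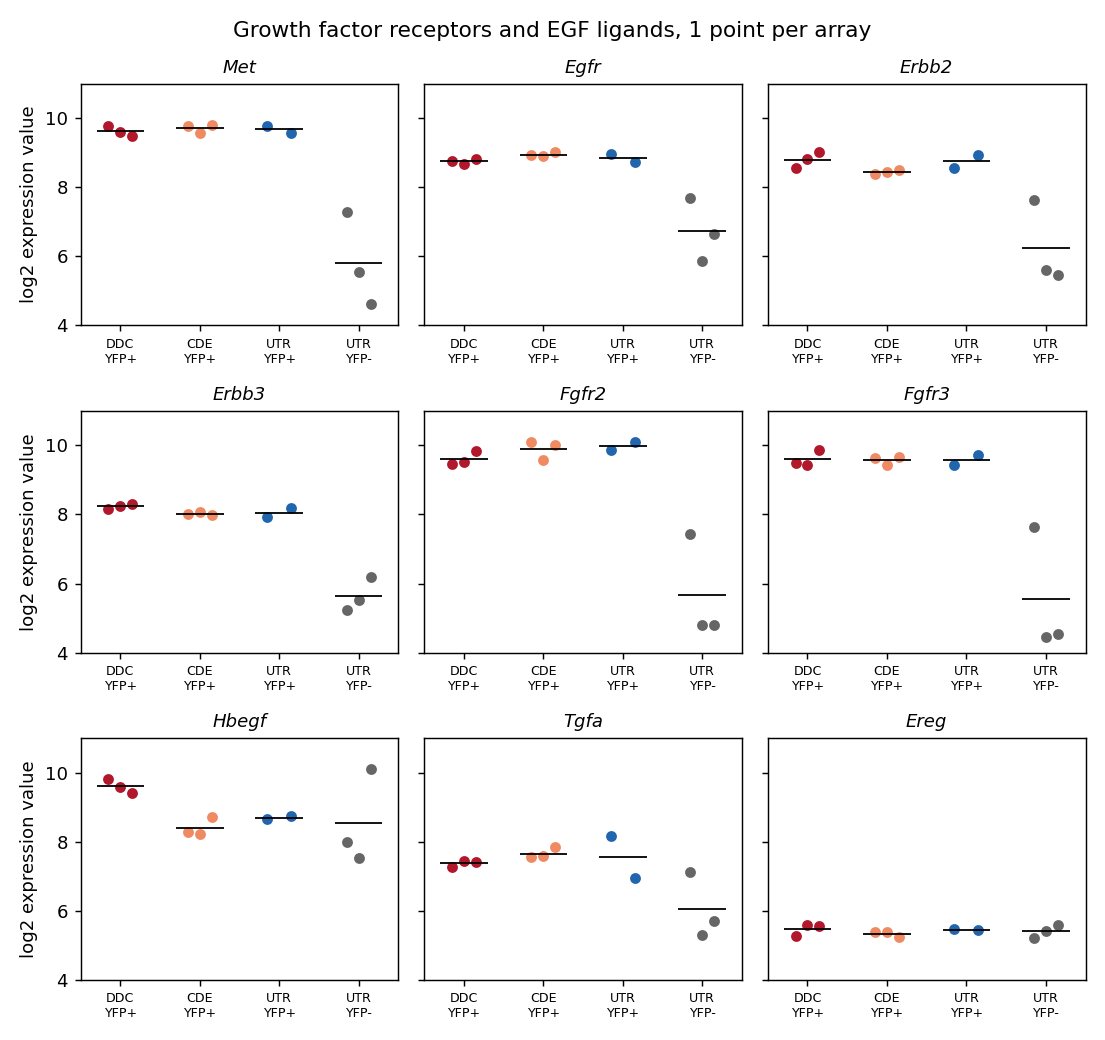
Log2 expression value (vertical axis) of each receptor and ligand on every array, 1 point per array, with DDC, CDE and untreated (UTR) YFP+ cells and untreated YFP- cells from left to right and a line at each group mean. The 6 receptors lie between 7.93 and 10.11 on all YFP+ arrays and at 7.68 or below on the YFP- arrays, while Hbegf is highest on the DDC arrays and on 1 YFP- array.

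The YFP- array with biliary markers, replicate 1, had the highest value of the 3 for 5 of the 6 receptors. Its part in the YFP- levels was not tested, but the differences were computed without it: Met was then higher by 4.60, Egfr by 2.58, Erbb2 by 3.22, Erbb3 by 2.21, Fgfr2 by 5.17 and Fgfr3 by 5.08, and all 6 kept their call. With separate variances for the fractions all 6 also kept their call. That setting gives each fraction 1 weight shared by all genes, so it does not follow the wider YFP- spread of single genes. In a fit of the 5 untreated arrays alone, only Erbb3 of the receptors passed (adjusted p = 0.0383, limma). The other 5 had adjusted p from 0.0792 to 0.144, and 931 genes were called in place of 4373. That fit has fewer arrays, but at the same differences the SEs of all 6 receptors were also larger than in the main fit. The SE was 0.82 in place of 0.59 for Met, 1.09 in place of 0.79 for Fgfr3 and 0.33 in place of 0.24 for Erbb3. The main fit pools the YFP- arrays with YFP+ arrays that varied less, so its SEs and adjusted p for the receptors can be too small. Without UTR replicate 1 the calls of Egfr and Erbb2 were lost, and without UTR replicate 2 those of Erbb2 and Fgfr3 (adjusted p = 0.0507 to 0.0842).

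**Figure D2:**
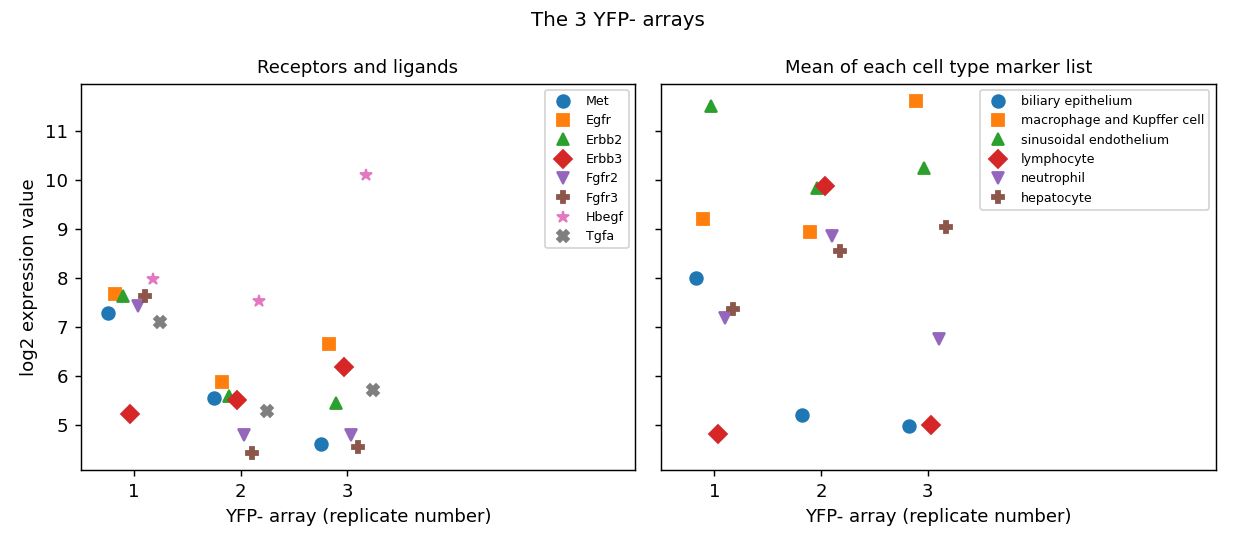
Log2 expression value on the 3 YFP- arrays (horizontal axis, replicate number) of 8 members, left, and the mean log2 value of 6 cell type marker lists, right. Replicate 1 has the highest values of 5 receptors and of the biliary list (8.01), and replicate 3 the highest Hbegf (10.10) and macrophage mean (11.61).

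None of the 3 ligands passed in this comparison. Tgfa read 8.17 and 6.95 in untreated YFP+ cells, against 7.11, 5.29 and 5.71 in YFP- cells. The groups overlapped, since UTR replicate 2 lay below YFP- replicate 1, and the difference of 1.52 ± 0.50 had an adjusted p of 0.0627 (limma). Without 1 array in turn the difference ran from 0.92 to 2.13. Without YFP- replicate 1, the array with biliary markers, it was 2.06 (adjusted p = 0.00226, limma). Over the 8 other settings of the fit its adjusted p ran from 0.0478 to 0.298. Hbegf read 8.66 and 8.73 in untreated YFP+ cells, against 7.98, 7.53 and 10.10 in YFP- cells. Its difference was 0.16 ± 0.61 (adjusted p = 0.890, limma), and 0.94 (adjusted p = 0.0219) without YFP- replicate 3, the array with the highest macrophage markers. The part of macrophage RNA in that value was not tested. Ereg stayed at 5.20 to 5.60 on all 11 arrays, near the array medians, and its groups overlapped (0.04 ± 0.15).

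With all 8 YFP+ arrays set against the 3 YFP- arrays, 7 of the 9 members were called, all higher (30.5% of all genes were called, 16.3% higher and 14.3% lower), the 6 receptors by 2.11 to 4.15 and Tgfa by 1.49 ± 0.37 (adjusted p = 0.0139, limma). The CDE and DDC arrays add the diet to the label in this comparison. Arrays did not overlap for the same 6 receptors (13.9% of all genes in this direction). The call of Tgfa was lost without YFP- replicate 2 (adjusted p = 0.0527) or 3 (0.0580) and with separate variances for the fractions (0.0536). Hbegf was higher by 0.37 ± 0.46 (adjusted p = 0.582, limma) and by 1.15 (adjusted p = 0.00210) without YFP- replicate 3. Ereg differed by 0.01 ± 0.11.

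The genes most like each receptor over the 11 arrays were found by Pearson correlation, which here follows mainly the step between the sorted fractions. They were Capsl, Glis3 and Ehf for Met (r = 0.997 to 0.998), and Ambp, Gpt2 and Bche for Egfr (0.994 to 0.997). For Erbb2 they were Plekha6 and the keratins Krt19 and Krt8 (0.991 to 0.992). Hdac11, Tctn1 and Cox7a1 were nearest to Erbb3 (0.986 to 0.991), Elovl7, Bex1 and Efemp1 to Fgfr2 (0.996 to 0.997), and Anxa13, Dsg2 and Tm4sf4 to Fgfr3 (0.997 to 0.998). Between the receptors themselves the 15 correlations ran from 0.82 to 0.99 over 11 arrays, with a median of 0.97, and from -0.86 to 0.81 over the 8 YFP+ arrays, with a median of 0.03. The nearest genes over the 8 YFP+ arrays were Cdc42bpg, Tpcn1 and Coq10b for Hbegf (0.972 to 0.976), Arpc2, Adh5 and Dhx40 for Tgfa (0.961 to 0.978), and Pcyox1, Omt2b and Cdh15 for Ereg (0.961 to 0.974), whose values spanned only 0.34 there.

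The other genes of these pathways were followed in 7 lists, of which 92 of 100 genes were measured. In untreated YFP+ against YFP- cells 20 of the 92 were called higher and 11 lower, against 10.4% and 8.46% of all genes. With all 8 YFP+ arrays 30 were higher and 18 lower, against 16.3% and 14.3% of all genes. Of the 26 genes of these lists named as called in the next paragraphs, 6 remained called in the fit of the 5 untreated arrays alone (Btc, Erbb4, Lrig3, St14, Fgfr4 and Flrt3). In the HGF and MST1 list 7 of 15 were higher and 2 lower (median 0.56). The gene of HGF, the ligand of Met, was lower in YFP+ cells: Hgf read 4.35 and 4.29 in untreated YFP+ cells, against 10.24, 6.72 and 8.40 in YFP- cells. Its YFP+ values lay near the lower quartile of the arrays (4.30 and 4.32), and the difference was -4.14 ± 0.76 (adjusted p = 0.00500, limma), running from -5.01 to -3.24 without 1 array in turn. Its highest YFP- array was replicate 1. Among the YFP- arrays that replicate also led the stellate cell (7.46), endothelial (11.52), biliary (8.01) and mesothelial (5.60) lists. The part of any of these cells in the Hgf values was not tested.

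The genes that set HGF activation were called in both directions. The matriptase gene St14 read 10.14 and 10.04 in untreated YFP+ cells, against 7.03, 6.96 and 5.61 in YFP- cells (3.56 ± 0.36, adjusted p = 0.000266, limma). Hepsin, Hpn, was higher by 2.55 ± 0.40, and Spint1, the inhibitor of both proteases, by 3.38 ± 0.62. Plxnb1, a semaphorin receptor that can associate with Met, was higher by 3.93 ± 0.61. Plau, the urokinase gene, was lower by -2.05 ± 0.49 (adjusted p = 0.0183), a call lost without UTR replicate 2 (-1.44).

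In the list of Erbb4 and negative regulators of the family, 3 of 9 were higher and 2 lower (median 0.20). Of all genes 10.4% were called higher and 8.46% lower. Erbb4, the remaining ERBB receptor, read 8.02 and 8.38 in untreated YFP+ cells, against 5.22, 3.95 and 4.81 in YFP- cells (3.54 ± 0.35, adjusted p = 0.000240, limma), so all 4 ERBB genes were higher in YFP+ cells. The feedback inhibitor Errfi1, which binds the kinase domains of the family, was higher by 2.22 ± 0.39 and Lrig1, a membrane inhibitor, by 0.95 ± 0.22. Lrig3 was lower by -1.03 ± 0.13 and the ubiquitin ligase gene Cbl by -0.81 ± 0.23. The calls of Lrig1 and Cbl were lost without either UTR array, and that of Cbl also without YFP- replicate 2 or 3. Of the 7 EGF family ligands outside the members, 1 was higher and 0 lower (median 0.23): Btc, betacellulin, an Egfr and Erbb4 ligand, with 7.33 and 7.11 in untreated YFP+ cells, against 6.08, 5.54 and 5.97 in YFP- cells (1.36 ± 0.18, adjusted p = 0.00104, limma).

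Of 8 ligand shedding genes 1 was higher and 3 lower (median -0.18), against 10.4% and 8.46% of all genes. The sheddases Adam17 and Adam10, which release EGF family ligands, were lower by -1.43 ± 0.26 and -1.21 ± 0.18, and Adam12 by -0.67 ± 0.15. Rhbdf1, an adaptor of ADAM17, was higher by 1.70 ± 0.36. The call of Adam12 was lost without either UTR array and that of Rhbdf1 without UTR replicate 1 (adjusted p = 0.0724 to 0.0989). In the FGF list 6 of 18 were higher and 0 lower (median 0.40), among them Fgfr4 (3.22 ± 0.34), the receptor of bile acid-induced FGF15, Flrt3 (2.86 ± 0.29), Il17rd, an inhibitor of FGF signalling (2.00 ± 0.27), and Fgfr1 (1.94 ± 0.57), whose call was lost without UTR replicate 1 or 2 or YFP- replicate 3. Fgfr1 to Fgfr4 were thus all called higher in YFP+ cells.

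Genes that act below the receptors were called in both directions, against 10.4% of all genes called higher and 8.46% lower. Of 15 measured adaptors and cascade genes 1 was higher and 3 lower (median -0.43): Shc1 by 0.61 ± 0.17, against Gab2 by -1.75 ± 0.34, Pik3r1 by -0.97 ± 0.21 and Grb2 by -0.84 ± 0.22. Of 20 ERK feedback and target genes 1 was higher and 1 lower (median -0.20): the cyclin Ccnd1 (1.43 ± 0.25) and the ERK phosphatase Dusp6 (-0.86 ± 0.14). The calls of Shc1 and Grb2 were lost without either UTR array or YFP- replicate 3, that of Grb2 also without YFP- replicate 2, that of Pik3r1 without UTR replicate 1 and that of Gab2 without UTR replicate 2.

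**Figure D3:**
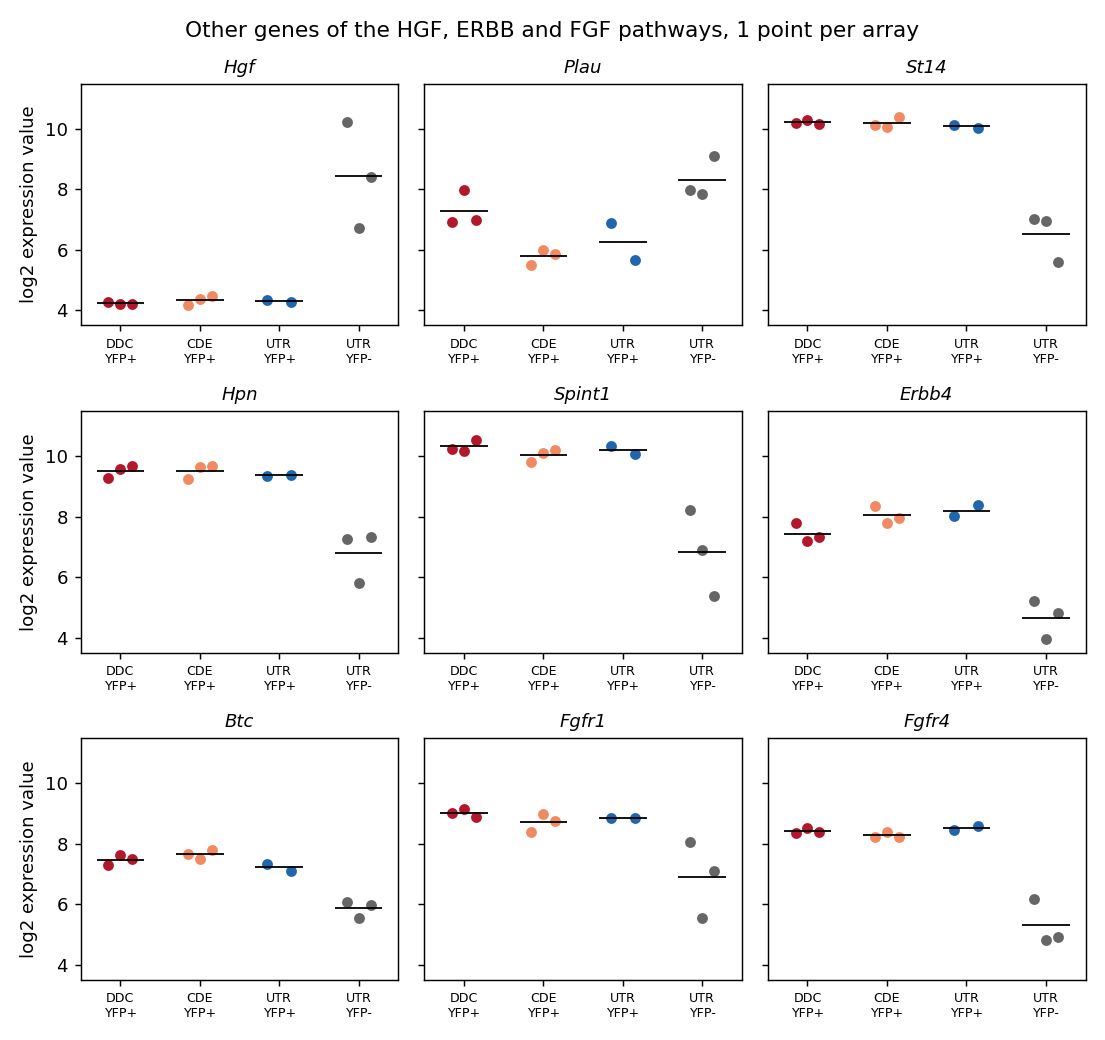
Log2 expression value (vertical axis) of 9 other genes of the HGF, ERBB and FGF pathways on every array, 1 point per array, with a line at each group mean. Hgf lies between 4.16 and 4.49 on all YFP+ arrays and between 6.72 and 10.24 on YFP- arrays, and the receptors and St14, Hpn and Spint1 show the opposite order.

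The diets were compared within the YFP+ cells in a fit of the 8 YFP+ arrays, to show how the labelled lineage responds to each injury. For CDE against UTR 0 of the 9 members passed with limma, and 0 reached an unadjusted p of 0.05. Over all genes 0% were called (1492 at an unadjusted p under 0.05). The differences of the 6 receptors ran from -0.32 (Erbb2) to 0.10 (Egfr), with 95% intervals that together spanned -0.67 to 0.37. Erbb2 read 8.38, 8.43 and 8.51 in CDE, against 8.57 and 8.93 in UTR, and its arrays did not overlap, as was so in this direction for 10.5% of all genes. Ereg, at 5.37, 5.38 and 5.23 in CDE, against 5.46 and 5.43 in UTR, was the other member without overlap (-0.12 ± 0.12). Hbegf differed by -0.29 ± 0.18 (adjusted p = 0.885). Tgfa differed by 0.09 ± 0.30, and by 0.70 without UTR replicate 1 or -0.51 without UTR replicate 2.

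For DDC against UTR 0 of the 9 members passed with limma, 1 of them (Hbegf) with an unadjusted p under 0.05, against 0.16% of all genes called. The receptor differences ran from -0.37 (Fgfr2) to 0.17 (Erbb3), with 95% intervals that together spanned -0.80 to 0.42. Fgfr2 read 9.46, 9.52 and 9.85 in DDC, against 9.87 and 10.09 in UTR, and its arrays did not overlap (11.8% of all genes in this direction). Hbegf read 9.82, 9.59 and 9.40 in DDC, against 8.66 and 8.73 in UTR. Each DDC array lay above both UTR arrays, as was so for 12.7% of all genes. The difference of Hbegf was 0.91 ± 0.18, a fold of 1.88. Its adjusted p was 0.120 (limma), and the adjusted p in the fit of all 11 arrays was 1.00. Tgfa differed by -0.19 ± 0.30, and by 0.41 or -0.80 without UTR replicate 1 or 2. In the lists, only Cd44 of the 92 genes passed, in the HGF list: the hyaluronan receptor, a co-receptor of Met in some of its splice forms, read 10.27, 10.28 and 10.27 in DDC, against 9.23 and 8.91 in UTR (1.20 ± 0.13, adjusted p = 0.0308), a call lost in the fit of all 11 arrays (adjusted p = 1.00) and without any 1 DDC array or UTR replicate 2 (adjusted p = 0.0636 to 0.134).

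**Figure D4:**
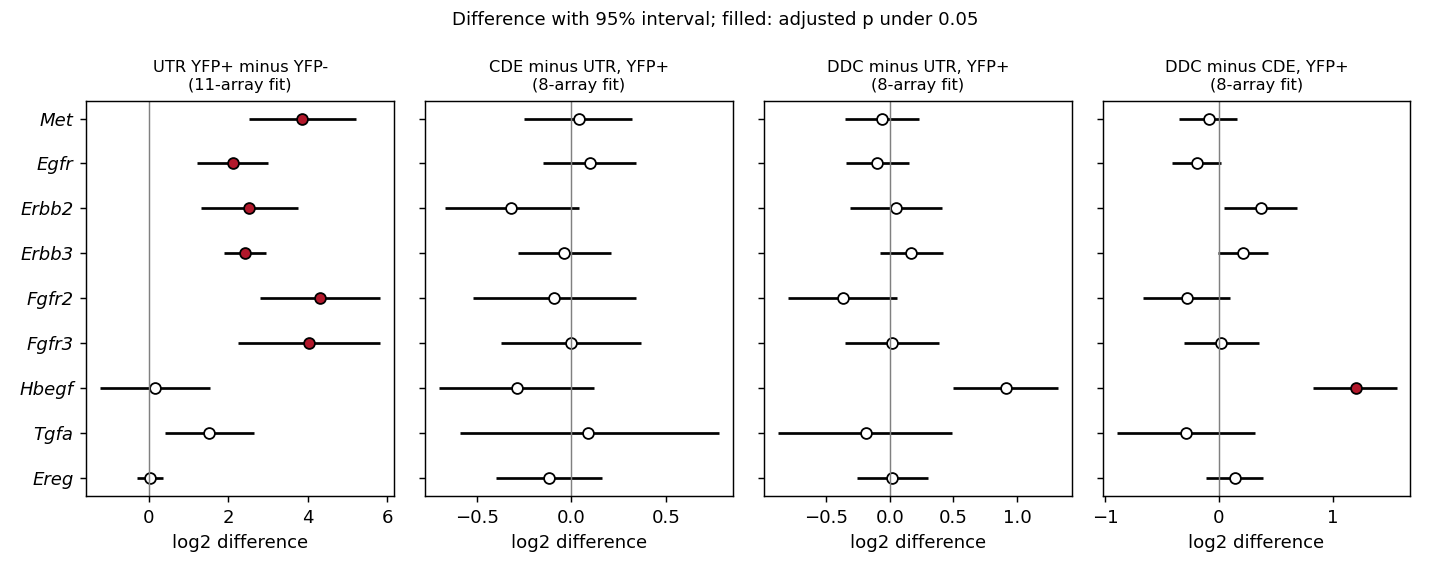
Log2 difference of each member with its 95% interval in 4 comparisons, with filled points for an adjusted p under 0.05. The 6 receptors are filled in UTR YFP+ minus YFP- and Hbegf in DDC minus CDE, and the axes differ between panels.

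The diets were then set against each other. Hbegf was the 1 member called (higher in DDC, against 0.418% of all genes called higher and 1.16% called in either direction). It read 9.82, 9.59 and 9.40 in DDC, against 8.27, 8.22 and 8.72 in CDE, and the groups did not overlap (9.64% of all genes in this direction). The difference was 1.20 ± 0.16, with a 95% interval of 0.83 to 1.56 and a fold of 2.29 (adjusted p = 0.0214, limma). With the YFP- arrays in the fit the adjusted p was 0.668, and the call was also lost without CDE replicate 1 or 2 or DDC replicate 1 or 2 (adjusted p = 0.0575 to 0.0857), with differences of 1.09 to 1.36 throughout. The order of the means was DDC (9.60), UTR (8.69), YFP- (8.53) and CDE (8.40). UTR and CDE overlapped.

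Markers of other cells were set beside Hbegf. The macrophage mean was 5.76 to 6.06 on DDC arrays and 6.04 to 6.99 on CDE arrays. The neutrophil mean read 5.65, 5.28 and 4.68 on the DDC arrays, in the same order as Hbegf. It read 4.70, 5.73 and 5.22 on the CDE arrays, in an order other than that of Hbegf. The biliary mean was 10.38 to 10.57 in DDC and 10.04 to 10.15 in CDE. The mesothelial mean was also higher on every DDC array, at 6.05 to 6.19, against 5.84 to 5.92 in CDE. On the UTR arrays it was 6.13 to 6.34. The stellate cell and fibroblast mean was lower, at 5.08 to 5.21 in DDC and 5.25 to 5.77 in CDE. The hepatocyte mean read 7.90, 7.59 and 7.81 on the DDC arrays and 7.67, 8.82 and 7.74 on the CDE arrays. The part of cell composition in the Hbegf difference was not tested.

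The other members did not pass between the diets. Erbb2 read 8.57, 8.82 and 9.01 in DDC, against 8.38, 8.43 and 8.51 in CDE. The arrays did not overlap, and the difference of 0.37 ± 0.14 had an adjusted p of 0.269 (limma). Erbb3, at 8.16 to 8.29 in DDC and 7.99 to 8.07 in CDE, also did not overlap (0.21 ± 0.10, adjusted p = 0.356). Egfr was 8.68 to 8.81 in DDC and 8.90 to 9.01 in CDE (-0.19 ± 0.09, adjusted p = 0.380), and Tgfa was 7.26 to 7.43 in DDC and 7.56 to 7.83 in CDE (-0.29 ± 0.27, adjusted p = 0.662). In all, 5 of the 9 members did not overlap between the diets, 3 higher and 2 lower in DDC, against 20.3% of all genes. Met (-0.09 ± 0.11), Fgfr2 (-0.28 ± 0.17), Fgfr3 (0.02 ± 0.14) and Ereg (0.14 ± 0.11) overlapped.

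Of the 92 listed pathway genes 2 were called higher in DDC than in CDE and 1 lower (0.418% and 0.742% of all genes). Errfi1 read 10.45, 10.36 and 10.68 in DDC, against 11.21, 11.61 and 11.37 in CDE, and was lower by -0.90 ± 0.13 (adjusted p = 0.0273, limma). Both UTR arrays, at 10.95 and 10.83, lay between the diets. Ier3, an immediate early target of ERK, read 11.23, 11.05 and 10.86 in DDC, against 10.08, 10.31 and 10.25 in CDE (0.83 ± 0.13, adjusted p = 0.0358). Cd44 was higher in DDC by 0.75 ± 0.11 (adjusted p = 0.0293), with 9.37, 9.62 and 9.59 in CDE. These 3 calls were lost in the fit of all 11 arrays (adjusted p = 0.264 to 0.783), and without any 1 array for Cd44 and Ier3, or any 1 except DDC replicate 3 for Errfi1. The medians of the 7 lists lay between -0.02 and 0.31, against 0.01 over all genes.

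**Figure D5:**
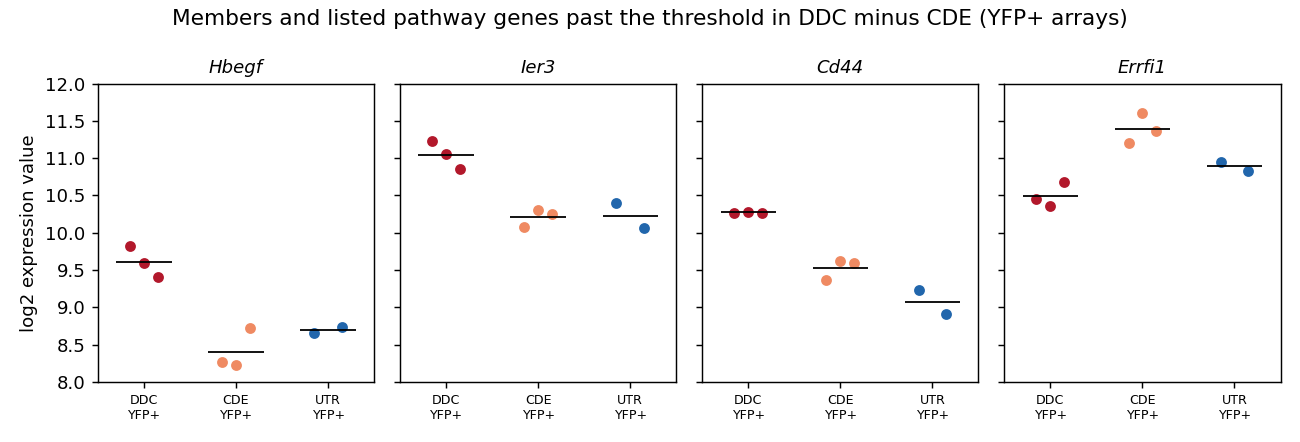
Log2 expression value (vertical axis) on the YFP+ arrays of Hbegf and of the 3 listed pathway genes past the threshold in DDC minus CDE, 1 point per array, with a line at each group mean. Hbegf, Ier3 and Cd44 are highest on the 3 DDC arrays, and Errfi1 is lowest there and highest on the CDE arrays.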

How the data were processed

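Expression was measured in 11 samples of sorted mouse liver cells on 1-colour arrays. The authors deposited 1 log2 value per feature and array, whose normalization is not given in the sources used here and whose base 2 was inferred from the range of the values (2.55 to 13.57). Of 25206 features, 23185 had 1 gene symbol in the platform annotation and were tested, while the annotation named none of the other 2021. Detection calls were not used here, and precision is limited by how many arrays there are.

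The main test was limma 3.58.1 (lmFit and eBayes on group means, R 4.3.3), two-sided, with Benjamini-Hochberg adjustment over all genes and a threshold of 0.05. Comparisons with YFP- used all 11 arrays (7 residual degrees of freedom) and comparisons among YFP+ groups the 8 YFP+ arrays (5). The YFP- arrays were left out of the latter because they were known to vary more. Comparisons with YFP- still pool the spread of both fractions. For genes that vary more in YFP-, their SEs and p-values can therefore be too small. The SDs of the receptors were 0.50 to 1.82 in YFP- and 0.04 to 0.29 in the YFP+ groups. A fold is 2 raised to the log2 difference. The members, the lists, this choice of arrays and the tests were fixed with earlier results of these data known. Since the labels name no animal per array, the p-values speak of the spread among these arrays alone, which may be technical.

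Text names all members, up to 4 called genes per list and direction (or up to 2 where none was called), the 3 genes most correlated with each member, and cell type markers. Listed genes without a named row are not reported. Alternatives were quantile normalization, median centring, leaving out dim genes (under percentile 25), trended and robust variance, array weights, separate variances, a replicate block, other sets of arrays, and each array left out. The procedure was tested on simulated data. Promoter sequences are those of RefSeq, build GRCm38.p6.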

Additional observations from a re-analysis of the deposited data

Results flagged for a closer look

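Of the genes named here, 4 passed the test of DDC minus CDE in the 8 YFP+ arrays (limma), in which 1.16% of all genes were called. All 4 calls were lost in the fit of all 11 arrays (adjusted p = 0.264 to 0.783), with the replicate block (0.0652 to 0.0875) and in at least 4 of the 6 fits that leave out 1 diet array. Hbegf differed by 1.20 ± 0.16 (adjusted p = 0.0214), with 0.91 for DDC minus UTR and -0.29 for CDE minus UTR. Errfi1 differed by -0.90 ± 0.13 (adjusted p = 0.0273), with -0.40 for DDC and 0.50 for CDE against UTR. Ier3 differed by 0.83 ± 0.13 (adjusted p = 0.0358), with 0.82 for DDC and -0.01 for CDE. Cd44 differed by 0.75 ± 0.11 (adjusted p = 0.0293), with 1.20 for DDC and 0.46 for CDE. Both diets share the 2 UTR arrays, so their differences from UTR are not independent.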

How the results depend on the processing

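Without 1 array in turn, the number of called genes ran from 2306 to 5817 for UTR minus YFP- (main 4373), 5887 to 7797 for YFP+ minus YFP- (7083), 0 to 46 for CDE minus UTR (0), 0 to 103 for DDC minus UTR (37) and 16 to 123 for DDC minus CDE (269). The members called ran from 4 to 7, 6 to 7, 0 to 0, 0 to 0 and 0 to 1. Where UTR loses an array, the lone array is assumed to vary like the other groups. With only the arrays of the groups compared, 931 genes and 1 member were called for UTR minus YFP- and 0 genes for DDC minus UTR. With array weights 4534 genes, and with separate variances 4193, were called for YFP+ minus YFP-. For CDE minus UTR 1 gene was called after median centring, without dim genes, with trended and robust variance or with array weights. In the fit of all 11 arrays DDC minus UTR called 0 genes and DDC minus CDE 1 gene and 0 members.

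Deviations of same-numbered arrays from their group means correlated at -0.072 to 0.131, with 1 of 15 pairs over 0.1. Those of different-numbered arrays correlated at -0.151 to 0.151, and 5 of 11 arrays correlated best with their own number. Deviations cancel within each small group, so these correlations cannot settle whether the replicate numbers pair the arrays. With the replicate block 3696 genes and 6 members were called for UTR minus YFP-, 6482 and 7 for YFP+ minus YFP-, 0 and 0 for CDE minus UTR, 0 and 0 for DDC minus UTR, and 61 and 0 for DDC minus CDE.

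Small differences of members changed sign. Ereg reached -0.003389 and -0.01 for UTR minus YFP- after quantile normalization and median centring, -0.04, -0.05 and -0.02 for YFP+ minus YFP- after quantile normalization, median centring and array weights, and -0.01 and -0.002503 for DDC minus UTR after quantile normalization and median centring. Hbegf was -0.09 for UTR minus YFP- with array weights, and Fgfr3 0.01 for CDE minus UTR with array weights and -0.01 and -0.07 for DDC minus UTR after median centring and with the replicate block. Met was 0.00219 for DDC minus UTR after quantile normalization and Erbb2 -0.02 with the replicate block. Leaving out 1 array in turn turned the sign of further small differences, within these ranges. For UTR minus YFP-, Ereg ran from -0.06 to 0.13 and Hbegf from -0.34 to 0.94, and for YFP+ minus YFP-, Ereg from -0.09 to 0.10 and Hbegf from -0.14 to 1.15. For CDE minus UTR, Egfr ran from -0.02 to 0.21, Erbb3 from -0.16 to 0.09, Met from -0.07 to 0.14, Fgfr2 from -0.20 to 0.07, Fgfr3 from -0.15 to 0.14, Tgfa from -0.51 to 0.70, Nrg4 from -0.29 to 0.49 and Plau from -1.09 to 0.15. For DDC minus UTR, Egfr ran from -0.21 to 0.02, Erbb2 from -0.13 to 0.23, Met from -0.16 to 0.04, Fgfr3 from -0.13 to 0.16, Ereg from -0.03 to 0.12 and Tgfa from -0.80 to 0.41, and for DDC minus CDE, Fgfr3 from -0.11 to 0.10. The cause of these changes was not tested.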
